A study of Homo sapiens with 6 samples.

Results

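The 41 genes described here encode the enzymes of glycolysis, the carriers that bring glucose in and lactate out, and a set of genes that cells switch on when oxygen is low. They were taken by symbol from a written list with no threshold on their values, and all 41 were found among the 14959 genes of the deposited table. The RNA came from the human line UM-SCC1, established from a squamous cell carcinoma of the head and neck. It was taken 48 h after transfection with miR-204-5p mimics (3 replicate libraries) or with control mimics (3 replicate libraries). Mimics are synthetic RNA duplexes that the cell loads in place of the natural miRNA, and the control mimics are the study's non-targeting oligos. No genotype or drug separates the groups, all 6 libraries come from a single line, and the oxygen level of the cultures is not given in the labels. The question asked of these genes was how a rise of miR-204-5p by transfection goes with the mRNAs of sugar breakdown and of the oxygen response.

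Glycolysis splits glucose into pyruvate in a chain of cytosolic steps, and lactate dehydrogenase turns pyruvate into lactate where the cell does not burn it in its mitochondria. Hypoxia-inducible factor (HIF) is a pair of an oxygen-sensitive alpha subunit, such as HIF1A, and a stable partner, ARNT. With oxygen, prolyl hydroxylases (the EGLN enzymes) mark the alpha subunit for VHL-dependent breakdown, and without oxygen the alpha subunit builds up and raises the transcription of many of the genes listed here. HIF1A is thus controlled mostly as a protein, which RNA-seq does not measure. Squamous tumours often hold poorly oxygenated areas, in which CA9 and SLC2A1 are common markers.

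The levels were deposited as FPKM, the fragments of a transcript per kilobase of its length and per 1e6 mapped ones, so that genes can be compared per length within a library. Fold changes and tests were computed on log2(FPKM + 1) with limma, which understates the change of genes with a low FPKM, and p-values were adjusted by Benjamini-Hochberg over all 14959 genes. A gene is called below where the adjusted p was under 0.05. Of the 41 genes, 38 reached a mean of 1 FPKM and none was listed at 0 in any library. The exceptions under 1 FPKM were ALDOC, SLC2A3 and CA12. All 12 squamous epithelial markers were present, from 2.07 FPKM for KRT6A to 321 FPKM for SFN. Their summed FPKM ranged from 1143 to 1218 with miR-204-5p mimics and from 1251 to 1267 with control mimics. The single markers moved in both directions, with log2 fold changes from −1.01 for TP63 to 0.81 for KRT6A. TP63, KRT14, KRT5, DSP, EPCAM and EGFR were called lower, KRT6A, LAMB3, CDH1, ITGB4 and SFN higher, and KRT17 was not called. The sums were 9.81 to 11.6 and 8.58 to 9.41 for 4 of 7 fibroblast markers, 16.1 to 18.5 and 20.1 to 22.0 for 5 leukocyte markers, and 0.590 to 0.767 and 0.443 to 0.502 for 3 of 4 endothelial markers. Of the defining genes, PTPRC was listed at 0.120 to 0.546 FPKM and PECAM1 at 0.105 to 0.173 FPKM, COL1A1 reached 8.04 to 10.5 FPKM, and the leukocyte sum was mostly CD14 at 11.8 to 16.6 FPKM. What part these differences play in the results was not tested. Among low values of genes with a single annotated transcript, 30.4% to 38.1% per library lay on whole multiples of a best-fitting step. At the median step tried 3.09% to 3.32% did. From the best steps the deepest library was placed at 1.26 times the shallowest, although most low values lay off them. The number of fragments behind a step was not settled, so no counting interval is given.

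The mature miRNA is shown first, because its seed (bases 2 to 8, in capitals) sets which transcripts it can pair with.
hsa-miR-204-5p: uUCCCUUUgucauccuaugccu
RefSeq places these 22 bases at chr9:70810031-70810052 on the minus strand of GRCh38.p14. A 3'UTR match was counted as an 8mer (AAAGGGAA), a 7mer-m8 (AAAGGGA) or a 7mer-A1 (AAGGGAA), on the sense strand and in the longest annotated 3'UTR per gene (GENCODE 29). The longer match contains the shorter ones, and each gene was counted under its longest. Only 5 of the 41 genes held a match, 1 of them an 8mer, and 87.8% held none, as against 72.9% of the 14660 genes of the table with a 3'UTR. The sites are shown within 30 bases of the transcript, with the match in capitals, because 4 of the 5 genes fell (80.0%). Of all 3973 genes with a match 27.0% were called lower by limma.
PDK1: ttagtgcccctAAAGGGAAaggaatgtgct
HK2: tgtgggaagagAAGGGAAgcctcttcaggg
PKM: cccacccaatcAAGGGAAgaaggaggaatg
EGLN3: taagttagggtAAGGGAAagaaagatcctg
CA12: gctgttcatgaAAAGGGAgacttactggga
On GRCh38 the 8mer of PDK1 spans chr2:172600953-172600960 (plus strand, exon 11 of 11), the site of HK2 chr2:74891941-74891947 (plus strand, exon 18 of 18) and that of PKM chr15:72199419-72199425 (minus strand, exon 11 of 11). The site of EGLN3 (chr14:33948600-33948606, minus strand) lies in a transcript of 1 exon that is not the one listed for the gene, and the listed transcript of PDK1 has no 3'UTR. The site of CA12 (chr15:63324266-63324272, minus strand, exon 11 of 11) belongs to a gene listed at no more than 0.123 FPKM. A further 7mer-A1, of BNIP3, lies in the 3'UTR of the listed transcript only (chr10:131967361-131967367, minus strand, exon 6 of 6).
BNIP3: gcacgatggtcAAGGGAAttccgtttttgt
The other 10 genes that fell held no match in their longest 3'UTR, and they were 27.8% of the 36 genes without one, as against 13.4% of all 10687 genes without one. A match is a description of letters and not a measured site.

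In cells with miR-204-5p mimics 14 of the 41 genes fell and 4 rose, and 23 were not called. By log2 fold change of FPKM + 1, the decreases were largest among oxygen-response genes (EGLN3, DDIT4, NDRG1, CA9, PDK1, BNIP3) and in the enzymes PKM, HK2 and ALDOC. The increases were all in enzymes, namely the 3 phosphofructokinases and LDHB. As a share, 43.9% of the 41 genes were called, near the 40.8% of all genes, so the number of calls as such is no feature of these genes. By direction, 34.1% were lower and 9.76% higher, whereas 16.8% of all genes were called lower and 23.9% higher. The background turned with the scaling of the libraries. With equal sums, equal medians or quantile normalization 19.3% to 20.2% of all genes were called lower and 20.3% to 20.8% higher, and 16 to 19 of the 41 genes lower and 4 higher. Of the 11504 genes with a mean of at least 1 FPKM, 20.1% were called lower and 27.7% higher in the fit of all genes. Fitted on these genes alone, the shares were 21.1% and 28.9%, and 13 of the genes described here were lower and 4 higher. The log2 fold change was negative for 32 of 41 genes, with a median of −0.17 as against 0.032 over all genes. There was no overlap between the groups for 18 genes on the lower and 4 on the higher side, with 22.7% and 30.9% of all genes as background. In bulk RNA, fewer cells that express a gene and less of its RNA per cell cannot be told apart.

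**Figure D1:**
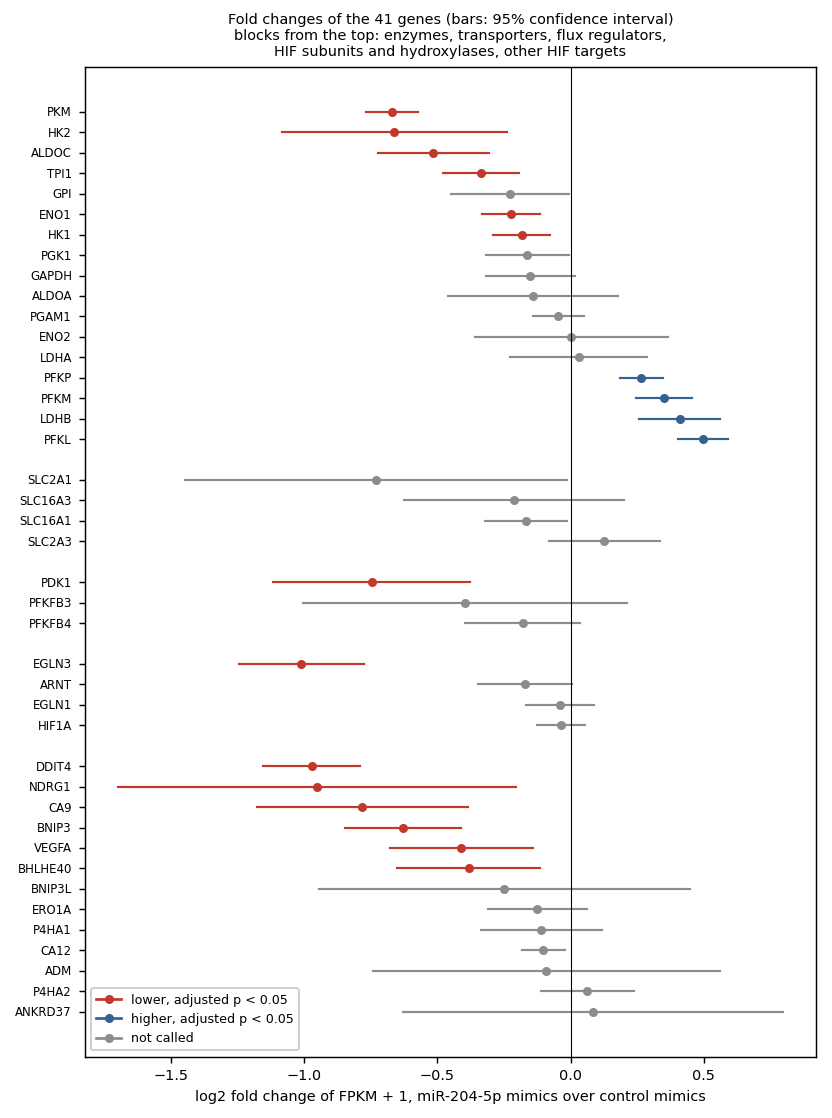
Log2 fold change of FPKM + 1 (horizontal axis, miR-204-5p mimics over control mimics, n = 3 per group) of the 41 genes, grouped by role, with 95% confidence intervals as bars and calls at a limma adjusted p under 0.05 in colour. EGLN3 lies lowest at −1.01 and PFKL highest at 0.50, and no gene outside the enzymes was called higher.

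The 17 enzymes of the pathway did not move as a block. At its entry, HK1 and HK2 encode the hexokinases that trap glucose in the cell as glucose 6-phosphate, and HK2 is the inducible form. HK2 (ENSG00000159399, plus strand of chromosome 2 from 74833981 to 74893359, listed with its full transcript of 18 exons) was measured at 15.2, 15.6 and 12.2 FPKM with miR-204-5p mimics and 30.6, 19.9 and 20.3 FPKM in the controls. All libraries with miR-204-5p mimics lay under all controls, and control replicate 1 stood well above the other controls. HK2 fell to 60.8% of control, with a log2 fold change of −0.66 (95% confidence interval −1.08 to −0.24 with an adjusted p of 0.0246 by limma). The call was lost without miR-204-5p mimics replicate 1 (adjusted p = 0.0530) or replicate 3 (adjusted p = 0.0740). Without control replicate 1 the gene was still called, with a log2 fold change of −0.47. HK1, the constitutive hexokinase, fell by less, from 60.1 ± 2.78 to 52.8 ± 1.32 FPKM (SD with n = 3, log2 fold change −0.18 with an adjusted p of 0.0179 by limma). That call was lost without miR-204-5p mimics replicate 1, control replicate 1 or control replicate 2 (adjusted p = 0.0530 to 0.0597). It was also lost with the replicate number as a block (adjusted p = 0.0624 by limma). The share of HK2 in the sum of both was 18.5% to 22.9% with miR-204-5p mimics and 24.6% to 32.8% in the controls.

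Phosphofructokinase commits the sugar to glycolysis, and its liver, muscle and platelet subunits are encoded by PFKL, PFKM and PFKP. All 3 rose. PFKL lay between 54.7 and 58.4 FPKM with miR-204-5p mimics and between 39.2 and 40.8 FPKM in the controls, so that it rose to 142% of control (log2 fold change 0.50, 95% confidence interval 0.40 to 0.59 with an adjusted p of 0.000240 by limma). PFKM was at 17.1 to 18.0 as against 13.2 to 14.1 FPKM (log2 fold change 0.35 with an adjusted p of 0.00129 by limma), and PFKP at 57.7 to 60.5 as against 49.1 to 49.5 FPKM (log2 fold change 0.27 with an adjusted p of 0.00136 by limma). The spread within each group was small for these genes, and the groups stood apart in each. Summed, the 3 subunits reached 134 ± 3.12 FPKM with miR-204-5p mimics and 103 ± 0.941 FPKM in the controls. The table lists PFKP with a transcript of 432 bases, whereas its longest has 2769, and which transcripts enter its FPKM is not stated. GPI, which links hexokinase to phosphofructokinase and is listed with 577 of at most 4341 bases, was not called (log2 fold change −0.23 with an adjusted p of 0.0949 by limma). It was called lower without miR-204-5p mimics replicate 1 (adjusted p = 0.0391), with equal sums (adjusted p = 0.0482) and with the replicate number as a block (adjusted p = 0.0309).

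Aldolase cuts the sugar into trioses. ALDOC, the scarce brain-type aldolase (ENSG00000109107, minus strand of chromosome 17 from 28574696 to 28575914), was listed at 0.385, 0.456 and 0.236 FPKM with miR-204-5p mimics and at 1.09, 0.965 and 0.772 FPKM with control mimics. The groups were far apart relative to their spread, at 38.1% of control (log2 fold change −0.52 with an adjusted p of 0.00427 by limma), but at levels far below those of ALDOA. ALDOC is listed with a transcript of 922 bases, whereas its longest has 1982. ALDOA, the main aldolase, was not called (450 ± 40.9 and 501 ± 85.8 FPKM, log2 fold change −0.14 with an adjusted p of 0.436 by limma). ALDOA is listed with a transcript of 666 bases, whereas its longest has 2534. All 666 are shared with AC093512.2 on the same strand, so reads from that stretch could belong to either gene. Which transcripts enter the FPKM of these genes is not stated. TPI1, which interconverts the trioses, fell from 259 ± 5.19 to 205 ± 15.9 FPKM (SD with n = 3, log2 fold change −0.34 with an adjusted p of 0.00503 by limma).

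In the lower part of the pathway, GAPDH, the triose dehydrogenase that is often taken as a loading control, was the most abundant of the 41 mRNAs. Its FPKM was 2705, 2365 and 2370 with miR-204-5p mimics and 2873, 2703 and 2673 in the controls. Replicate 1 with miR-204-5p mimics reached the level of the controls, and the other replicates with mimics lay below them. GENCODE 29 holds 62 pseudogenes named after GAPDH, none of them in the table, so its reads could have been shared with copies. GAPDH was not called, with a log2 fold change of −0.15 (95% confidence interval −0.32 to 0.017 with an adjusted p of 0.133 by limma). Without miR-204-5p mimics replicate 1 it was called (−0.21, adjusted p = 0.0216), and it was also called when the libraries were scaled to equal sums (adjusted p = 0.0354). PGK1, which makes the first ATP of the pathway, was not called (log2 fold change −0.16 with an adjusted p of 0.0896 by limma). It was called lower without miR-204-5p mimics replicate 1 (adjusted p = 0.0299) and with libraries scaled to equal sums (adjusted p = 0.0298) or, just under the threshold, to equal medians. Its listed transcript shares 97 exon bases with ATP7A on the same strand, so reads from that stretch could belong to either gene. ATP7A was at 2.20 FPKM on average and was called lower (log2 fold change −0.59 with an adjusted p of 0.000727 by limma). PGAM1, the mutase, was at 277 ± 8.45 and 286 ± 8.18 FPKM and was called, as lower, under quantile normalization alone (adjusted p = 0.0104). ENO1, the main enolase, fell from 643 ± 8.51 to 550 ± 26.2 FPKM (SD with n = 3, log2 fold change −0.22 with an adjusted p of 0.00884 by limma), while its neuronal relative ENO2 had a log2 fold change near 0 whose sign turned under 3 scalings.

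PKM, the pyruvate kinase that makes the last ATP, had the lowest adjusted p of the 41 genes. PKM (ENSG00000067225, minus strand of chromosome 15 from 72199029 to 72231386) was measured at 142, 138 and 134 FPKM with miR-204-5p mimics and 228, 217 and 214 FPKM in the controls. The groups lay far apart and the replicates close together. PKM fell to 62.7% of control (log2 fold change −0.67, standard error 0.0400, 95% confidence interval −0.77 to −0.57 with an adjusted p of 0.000102 by limma). The table lists a single transcript for the gene, so the M1 and M2 forms could not be separated.

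Lactate dehydrogenase is a tetramer of LDHA and LDHB subunits. LDHB lay between 305 and 344 FPKM with miR-204-5p mimics and between 238 and 264 FPKM in the controls, so that it rose to 133% of control (log2 fold change 0.41, 95% confidence interval 0.26 to 0.56 with an adjusted p of 0.00297 by limma). LDHA, a textbook HIF target, was at 159 ± 23.8 and 155 ± 9.43 FPKM and was not called (95% confidence interval of the log2 fold change −0.23 to 0.29), and the sign of its change turned with the scaling. LDHB mRNA made up 65.1% to 68.9% of the pair with miR-204-5p mimics and 61.3% to 61.9% in the controls, so that the shares did not overlap. Summed over all 17 enzymes, the FPKM was 5006 ± 307 with miR-204-5p mimics and 5489 ± 212 in the controls, 91.2% of control, and the highest library with mimics (5351) exceeded the lowest control (5326). Without GAPDH the sums did not overlap, though narrowly, at 2395 to 2646 and 2654 to 2855 FPKM. As a share of the summed FPKM of all genes, the 17 enzymes made up 1.68% to 1.83% with miR-204-5p mimics and 1.90% to 2.07% in the controls, again without overlap.

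**Figure D2:**
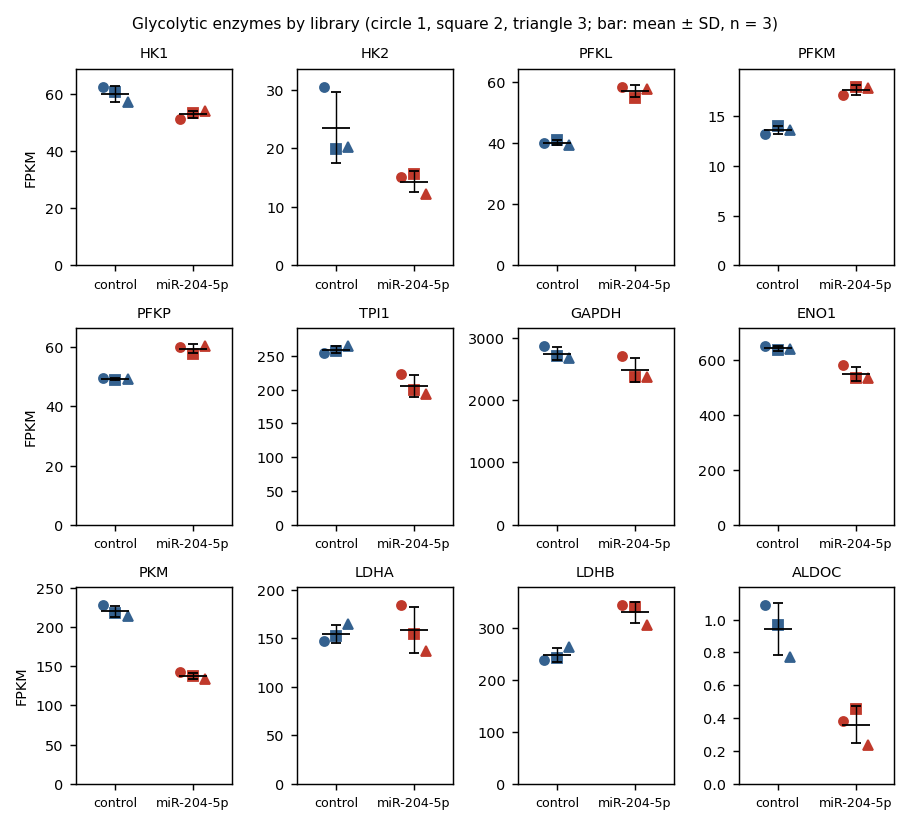
FPKM (vertical axis, from 0) of 12 glycolytic enzymes in each library, with controls in blue and miR-204-5p mimics in red, the symbol giving the replicate number and the bars the mean ± SD (n = 3). PFKL, PFKM, PFKP and LDHB stand higher with the mimics, PKM at 134 to 142 against 214 to 228 FPKM stands lower, and LDHA overlaps.

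None of the 4 transporters was called at an adjusted p under 0.05 from limma, while SLC2A1 and SLC16A1 had an unadjusted p under 0.05. SLC2A1 encodes GLUT1, the widespread glucose carrier (ENSG00000117394, minus strand of chromosome 1 from 42925375 to 42959176). Its FPKM was 86.0, 65.3 and 55.9 with miR-204-5p mimics and 162, 123 and 72.8 in the controls. The controls spanned more than their distance from the mimics, and the lowest control lay under the highest library with mimics. The log2 fold change was −0.73 with a wide 95% confidence interval of −1.45 to −0.011 (adjusted p of 0.0970 by limma). Without control replicate 3 it was −1.04 and called (adjusted p = 0.0140), and with the replicate number as a block −0.73 was called as well (adjusted p = 0.0145). SLC2A3, the neuronal glucose carrier GLUT3, was listed at 0.0791 to 0.365 FPKM and was called, as higher, only without miR-204-5p mimics replicate 3 (adjusted p = 0.0237). The monocarboxylate carriers, which move lactate across the membrane, were at 28.6 ± 2.48 and 32.1 ± 0.716 FPKM for SLC16A1 and 18.7 ± 3.44 and 21.9 ± 4.23 FPKM for SLC16A3. SLC16A1 was called lower by limma without miR-204-5p mimics replicate 1 (adjusted p = 0.00947), without both libraries numbered 1 (adjusted p = 0.0334) and with equal sums or equal medians (adjusted p = 0.0241 and 0.0439).

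Of the 3 regulators of the flux, PDK1 fell. PDK1 is a kinase that shuts pyruvate dehydrogenase and so keeps pyruvate out of the mitochondria, and it carries the 8mer shown above. It was listed at 1.31, 0.536 and 1.11 FPKM with miR-204-5p mimics and 2.07, 2.50 and 2.28 FPKM in the controls. Every control lay above every library with mimics, and the spread was wider among the latter. PDK1 fell from 2.28 ± 0.216 to 0.983 ± 0.400 FPKM, 43.0% of control (SD with n = 3, log2 fold change −0.75, 95% confidence interval −1.12 to −0.38 with an adjusted p of 0.00923 by limma). The table lists the gene with a transcript of 842 bases (chromosome 2, plus strand, 172555373 to 172565073), whereas its longest has 14193, and which transcripts enter the FPKM is not stated. PFKFB3 and PFKFB4 set the level of fructose 2,6-bisphosphate, the activator of phosphofructokinase. Neither was called (log2 fold change −0.40, adjusted p = 0.262 and −0.18, adjusted p = 0.162 from limma). PFKFB3 was at 4.49, 4.62 and 9.44 FPKM with miR-204-5p mimics, and without the last of these it was called as lower (−0.70, adjusted p = 0.00708).

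The mRNAs of the HIF pair were not called. HIF1A (ENSG00000100644, plus strand of chromosome 14 from 61695540 to 61748258) was at 66.9, 71.3 and 70.0 FPKM with miR-204-5p mimics and 70.1, 71.2 and 72.2 FPKM in the controls. The groups overlapped within a few FPKM, and the 95% confidence interval of the log2 fold change was −0.12 to 0.053 (adjusted p of 0.478 by limma). ARNT, the partner subunit, was at 12.2 ± 0.905 and 13.8 ± 0.996 FPKM (log2 fold change −0.17 with an adjusted p of 0.111 by limma). EGLN1, the main oxygen sensor among the prolyl hydroxylases, was at 8.78 ± 0.404 and 9.05 ± 0.295 FPKM and was not called.

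EGLN3, the prolyl hydroxylase that is itself a strong HIF target, had the most negative log2 fold change of FPKM + 1 of the 41 genes. As a percent of control it was not the lowest. PDK1 (43.0%), ALDOC (38.1%) and CA12 (27.3%), all listed at lower FPKM, lay below it. EGLN3 (ENSG00000129521, minus strand of chromosome 14 from 33924231 to 33951081) was at 8.28, 7.49 and 6.11 FPKM with miR-204-5p mimics and 15.8, 15.7 and 15.3 FPKM in the controls. The controls were nearly identical and lay far above every library with mimics. EGLN3 fell to 46.7% of control (log2 fold change −1.01, 95% confidence interval −1.24 to −0.78 with an adjusted p of 0.000488 by limma). Its share in the sum of EGLN1 and EGLN3 was 41.3% to 47.3% as against 62.7% to 64.0%.

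The remaining 13 genes are further HIF targets, of which 6 fell and none rose by limma, with 0 higher also at an unadjusted p under 0.05. These are 46.2% and 0%, as against 16.8% and 23.9% of all genes. DDIT4, also called REDD1, is a stress-induced inhibitor of mTORC1 signalling (ENSG00000168209, plus strand of chromosome 10 from 72273920 to 72276036). Its FPKM was 330, 287 and 309 with miR-204-5p mimics and 663, 581 and 575 in the controls. All libraries with mimics lay far below all controls, at 50.9% of control on average (log2 fold change −0.97, 95% confidence interval −1.15 to −0.79 with an adjusted p of 0.000236 by limma). DDIT4 is also induced by other stresses, so it does not report oxygen alone.

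CA9, the membrane carbonic anhydrase IX that handles acid in poorly oxygenated tumour areas, was at 28.5, 18.9 and 18.3 FPKM with miR-204-5p mimics and 39.3, 39.3 and 34.5 FPKM in the controls. The replicate numbered 1 was the highest with mimics and still lay below the controls. CA9 (ENSG00000107159, plus strand of chromosome 9 from 35673856 to 35681159) fell to 58.1% of control (log2 fold change −0.78, 95% confidence interval −1.18 to −0.39 with an adjusted p of 0.0101 by limma). It shares 643 exon bases with ARHGEF39 on the opposite strand, and the strand of the reads is not stated. ARHGEF39 itself was at 2.00 FPKM on average with a log2 fold change of 0.0063. CA12, a related carbonic anhydrase, was at 0.0281 ± 0.00785 and 0.103 ± 0.0185 FPKM, too low to be read, and its adjusted p lay just above the threshold. It was called lower with a pseudocount of 0.1 and under the 3 scalings.

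BNIP3 encodes a mitochondrial receptor for mitophagy. BNIP3 (ENSG00000176171, minus strand of chromosome 10 from 131966455 to 131982013) was at 17.8, 14.9 and 13.7 FPKM with miR-204-5p mimics and 24.0, 23.6 and 25.3 FPKM in the controls. The groups did not overlap, and BNIP3 fell to 63.5% of control (log2 fold change −0.63, 95% confidence interval −0.85 to −0.41 with an adjusted p of 0.00233 by limma). GENCODE 29 holds 39 pseudogenes named after it, none of them in the table, so reads could have been shared with these copies. The related receptor BNIP3L was at 21.4, 9.29 and 20.5 FPKM with miR-204-5p mimics and 18.1 to 20.1 FPKM in the controls. It was not called, and a single library set the sign of its change.

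VEGFA, the main growth factor of blood vessels, was at 8.02, 8.34 and 7.56 FPKM with miR-204-5p mimics and 13.2, 9.68 and 10.2 FPKM in the controls. The groups did not overlap, with control replicate 1 the farthest from the mimics. VEGFA fell to 72.5% of control (log2 fold change −0.41, 95% confidence interval −0.68 to −0.14 with an adjusted p of 0.0265 by limma). The call was lost without any 1 of the 3 libraries with miR-204-5p mimics (adjusted p = 0.0669, 0.0571 and 0.0786 in turn) and kept without any 1 of the controls. With the replicate number as a block it was kept (adjusted p = 0.0392 by limma).

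NDRG1, a stress-responsive gene of differentiated epithelium, was at 84.5, 53.6 and 40.7 FPKM with miR-204-5p mimics and 159, 92.9 and 92.9 FPKM in the controls. In each group replicate 1 was far above the others, and the groups were nonetheless separate. NDRG1 fell to 51.9% of control with a log2 fold change of −0.95, a wide 95% confidence interval of −1.70 to −0.20 and a limma adjusted p of 0.0495. With 1 library left out, the call was kept only without miR-204-5p mimics replicate 1, and otherwise the adjusted p was 0.0682 to 0.130. With the replicate number as a block the call was kept (adjusted p = 0.00393 by limma). BHLHE40, a transcriptional repressor of the clock and hypoxia responses, fell from 54.2 ± 7.48 to 41.2 ± 4.07 FPKM (SD with n = 3, log2 fold change −0.38 with an adjusted p of 0.0338 by limma). With 1 library left out, that call was kept only without control replicate 3, and otherwise the adjusted p was 0.0528 to 0.0961. With the replicate number as a block it was kept (adjusted p = 0.0298 by limma).

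**Figure D3:**
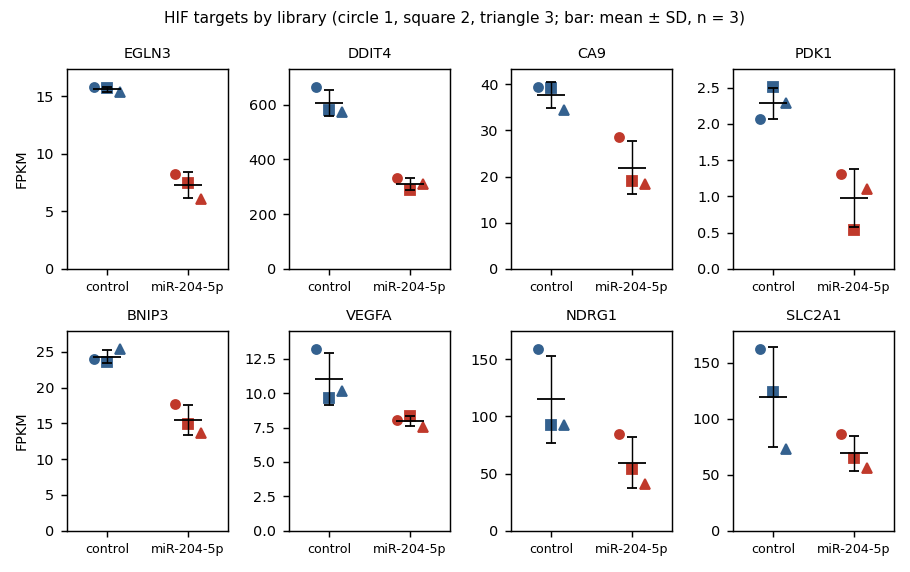
FPKM (vertical axis, from 0) of 7 genes of the oxygen response that were called lower and of SLC2A1, which was called only without control replicate 3 or with a replicate block, in each library, with controls in blue, miR-204-5p mimics in red, symbols for the replicate number and bars for the mean ± SD (n = 3). The groups are separate for each gene except SLC2A1, whose lowest control (72.8 FPKM) lies under the highest library with mimics (86.0 FPKM).

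The other HIF targets were not called by limma. ADM, the vasodilator peptide adrenomedullin, was at 13.6 ± 3.21 and 15.0 ± 5.99 FPKM, and ANKRD37, a small ankyrin-repeat protein, at 1.88 ± 0.649 and 1.81 ± 1.15 FPKM (SD with n = 3), so that both varied within groups more than between them. The collagen prolyl hydroxylase subunits P4HA1 and P4HA2 had log2 fold changes of −0.11 and 0.064 (95% confidence intervals −0.34 to 0.12 and −0.11 to 0.24). ERO1A, an oxidase of the endoplasmic reticulum, had a log2 fold change of −0.12 (95% confidence interval −0.31 to 0.061).

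HIF binds DNA at a short core, ACGTG or GCGTG, which was sought on both strands in RefSeq promoter windows of 300 bases (250 before and 50 after the start, GRCh38.p14). ACGTG overlaps the E-box CACGTG, which MYC and BHLHE40 also bind. A window was matched for 36 of the 41 genes and not for SLC2A3, SLC16A1, VEGFA, BNIP3L and NDRG1. Of these 36 genes, 32 held the core in at least 1 window, as against 67.7% of the 11452 genes of the table with a window. Counted by window the shares were 66.7% of 63 and 58.6% of 16649, since the genes described here have more annotated starts each. The core was held by 11 of 12 genes called lower, 4 of 4 called higher and 17 of 20 not called. With only 4 genes called higher and the core in most genes, these counts cannot show whether it goes with direction. ACGTG alone was held by 22 of the 36 genes (61.1%), as against 31.1% of all genes with a window. By window the shares were 41.3% and 24.5%. It was held by 8 of 12 genes called lower, 2 of 4 called higher and 12 of 20 not called. Windows upstream of the start are shown for 4 genes that fell and, for contrast, for PFKL, which rose, with the core in capitals.
CA9: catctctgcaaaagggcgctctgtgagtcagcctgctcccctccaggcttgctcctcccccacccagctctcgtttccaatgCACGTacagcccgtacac
PDK1: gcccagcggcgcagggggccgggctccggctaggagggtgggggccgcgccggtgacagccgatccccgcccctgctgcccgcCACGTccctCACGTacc
BNIP3: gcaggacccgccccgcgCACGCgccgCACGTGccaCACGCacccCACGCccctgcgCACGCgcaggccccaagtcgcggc
DDIT4: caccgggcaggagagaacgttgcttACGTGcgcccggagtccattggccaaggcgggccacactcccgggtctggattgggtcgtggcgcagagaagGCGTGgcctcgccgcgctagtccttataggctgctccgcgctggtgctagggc
PFKL: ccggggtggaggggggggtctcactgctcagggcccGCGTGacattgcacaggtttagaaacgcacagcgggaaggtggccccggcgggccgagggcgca
They lie at chr9:35673828-35673927 (plus), chr2:172555990-172556089 (plus), chr10:131982004-131982083 (minus), chr10:72273774-72273923 (plus) and chr21:44299853-44299952 (plus). The windows of CA9, PDK1 and DDIT4 end at the start site, that of BNIP3 ends 81 bases before it and that of PFKL 101 bases before it. The core of CA9 begins 18 bases before the start and the cores of PDK1 17 and 8 bases before it, whereas BNIP3 holds 6 matches, 2 of them the strands of a single CACGTG. None of the windows of EGLN3 held the core.

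The order of the libraries was alike for many, though not most, of the 41 genes. For 19 of the 41 genes (46.3%) replicate 1 was the highest in both groups, as it was for 8.63% of all genes. Replicate 2 was the highest in both groups for 1 gene (PFKM) and replicate 3 for none. Among the 19 were GAPDH, ENO1, PKM, SLC2A1, CA9, EGLN3, NDRG1, ADM and DDIT4. The margin could be narrow, as between control replicates 1 and 2 of CA9 (39.30 and 39.28 FPKM). Among 43 further HIF targets replicate 1 was the highest in both groups for 16 (37.2%). The labels do not say that a number marks a shared day or batch, and what sets these libraries apart was not tested. With both libraries numbered 1 left out, which was chosen after the data had been seen, limma called 13 of the 41 genes lower and 4 higher. CA9 (log2 fold change −0.95) and NDRG1 (−0.98) were then still called, SLC2A1 was still not (−0.64, adjusted p = 0.155), and the calls of HK1, VEGFA and BHLHE40 were lost (−0.13, −0.29 and −0.31). GAPDH and SLC16A1 were gained as lower (−0.18, adjusted p = 0.0480 and −0.23, adjusted p = 0.0334).

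**Figure D4:**
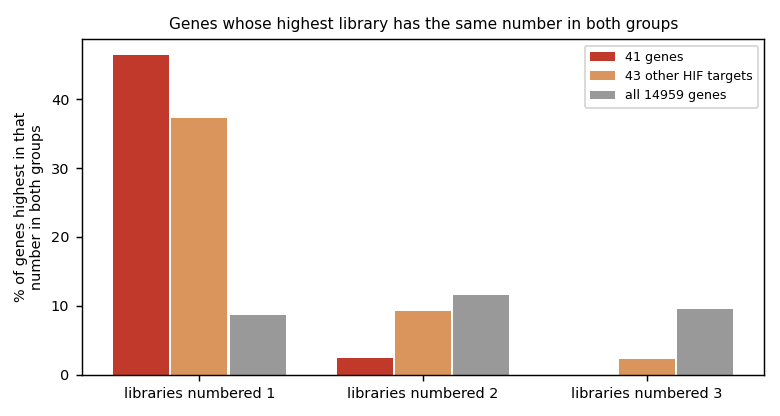
Percent of genes (vertical axis) whose highest library carries the same replicate number in both groups, for the 41 genes, 43 other HIF targets and all 14959 genes. The libraries numbered 1 were highest for 46.3% of the 41 genes and 8.63% of all genes.

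Further genes of the same pathways were counted from lists written from general knowledge with earlier results of these data known. The shares below are thus descriptions and not independent support. Of 43 other HIF targets 18 fell and 5 rose with limma, with a median log2 fold change of −0.27. These are 41.9% and 11.6%, as against 16.8% and 23.9% of all genes. With 1 library left out 13 to 19 fell and 3 to 6 rose, with the fewest falls, 13, without miR-204-5p mimics replicate 2 or 3. In these fits 13.7% to 15.2% of all genes were called lower and 19.2% to 21.0% higher. AK4, a mitochondrial adenylate kinase with an 8mer for miR-204-5p, fell from 14.2 ± 0.427 to 5.29 ± 0.274 FPKM (SD with n = 3, log2 fold change −1.27 with an adjusted p of 4.47e-05 by limma). SLC6A8, the creatine carrier, had a log2 fold change of −0.82 and JMJD6, a hydroxylase of proteins, of −0.80, both called lower. The call of SLC6A8 was lost without miR-204-5p mimics replicate 2 or 3 (adjusted p of at most 0.0743), and that of JMJD6 was kept without any 1 library. With the replicate number as a block both were called (adjusted p = 0.00296 and 0.00327 by limma). STC2, a secreted glycoprotein that ER stress also induces, rose from 5.36 ± 0.106 to 11.8 ± 0.303 FPKM (SD with n = 3, log2 fold change 1.01 with an adjusted p of 5.77e-05 by limma) and holds a 7mer-m8.

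Of 19 regulators of HIF, 7 fell and 3 rose, with a median of −0.077 (36.8% and 15.8%, as against 16.8% and 23.9% of all genes). EPAS1, which encodes the other main alpha subunit, HIF-2alpha, fell from 78.1 ± 1.89 to 51.8 ± 1.55 FPKM (SD with n = 3, log2 fold change −0.58 with an adjusted p of 0.000133 by limma). It thus differed where HIF1A did not, although the difference between these genes was not tested. EPAS1 is listed with a transcript of 1067 bases, whereas its longest has 5166, and which transcripts enter its FPKM is not stated. The coactivators CREBBP and EP300 fell, with log2 fold changes of −0.59 and −0.45. VHL, the substrate receptor that sends the alpha subunits to breakdown, fell from 26.1 ± 1.94 to 18.4 ± 0.439 FPKM (SD with n = 3, log2 fold change −0.48 with an adjusted p of 0.00123 by limma) and holds an 8mer. HSP90AA1, a chaperone of HIF1A protein, rose (0.46).

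Of the other 24 genes of glycolysis and gluconeogenesis, 10 rose and 4 fell, with a median of 0.070. The 4 that fell are 16.7% of the list, near the 16.8% of all genes, and the 10 that rose are 41.7%, as against 23.9%. G6PC3, a glucose 6-phosphatase, rose from 8.38 ± 0.397 to 18.1 ± 0.646 FPKM (SD with n = 3, log2 fold change 1.03 with an adjusted p of 6.74e-05 by limma). PGAM5, a mitochondrial phosphatase in spite of its mutase name, and PCK2, the mitochondrial phosphoenolpyruvate carboxykinase, rose with log2 fold changes of 0.92 and 0.61, and ENO3, the muscle enolase, with 0.49. PFKFB2 and PGM1 fell (−0.35 and −0.23) and belong to the list of HIF targets as well. Without miR-204-5p mimics replicate 1, 9 of the 24 were called, with 14.3% of all genes called lower and 21.0% higher.

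Where pyruvate enters the mitochondria, 3 of 12 genes fell and 3 rose, 25% each, as against 16.8% and 23.9% of all genes, so the share that rose is near the background. PDP1, the phosphatase that reverses what PDK1 does to pyruvate dehydrogenase, rose from 14.8 ± 3.10 to 46.0 ± 0.828 FPKM (SD with n = 3, log2 fold change 1.59 with an adjusted p of 0.000279 by limma). PDHX and DLAT, structural and catalytic parts of the complex, fell (−0.98 and −0.64), as did PDPR, a regulator of the phosphatase (−0.58). PDHX and PDPR hold an 8mer and PDP1 and DLAT hold no match. In the pentose phosphate pathway, which branches off glucose 6-phosphate, TKT fell (−0.45) and TALDO1 rose (0.48), and the other 5 genes were not called (14.3% in each direction). Of 5 genes of the MondoA glucose sensor 3 fell and 1 rose (60% and 20%). The gene that rose lay under 1 FPKM, at 0.663 ± 0.183 and 0.369 ± 0.0770 FPKM (SD with n = 3, adjusted p = 0.0485 by limma). With 1 library left out it was called only without miR-204-5p mimics replicate 1. It was not called with a pseudocount of 0.1, under the 3 scalings or without the trend. TXNIP, a brake on glucose uptake that carries an 8mer, had a log2 fold change of −0.52 and its activator MLXIP one of −0.35, both called lower. Only 2 of the 5 were called without miR-204-5p mimics replicate 2 or 3 or without control replicate 1 or 2. In these fits 13.7% to 15.2% of all genes were called lower and 19.2% to 20.7% higher.

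**Figure D5:**
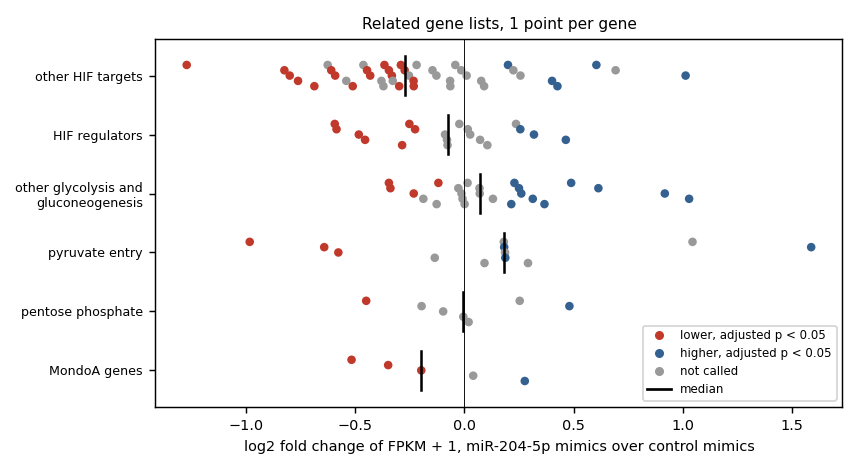
Log2 fold change of FPKM + 1 (horizontal axis, miR-204-5p mimics over control mimics, n = 3 per group), with 1 point per gene of 6 related lists and the median as a bar. Other HIF targets lie mostly below 0 with a median of −0.27, while other genes of glycolysis and gluconeogenesis have a median of 0.070.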

How the data were processed

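RNA of UM-SCC1 cells was made into libraries with the Illumina TruSeq kit and sequenced on HiSeq X machines. The authors deposited an FPKM value per gene and library, and their processing notes name HISAT2, StringTie and hg38 without versions. Columns of the authors' own edgeR comparison (log2 ratio, p-value, FDR) were not used. As FPKM values are not counts, limma 3.58.1 (lmFit and eBayes, trend on, R 4.3.3) was run on log2(FPKM + 1) of all 6 libraries with no filter and a two-sided test, and the script was tested on simulated data. Listed transcripts were looked up in GENCODE 29, where those of all 41 genes have the same coordinates. Other steps used Python 3.11.15, pandas 2.3.3 and numpy 2.4.6.

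The genes and lists were chosen with earlier results of these data known. All 41 genes could be named. Values in every library were due for GAPDH, HIF1A, SLC2A1, VEGFA, CA9 and each gene with an adjusted p under 0.05 and an absolute log2 fold change of at least 0.5. Genes of other lists could be named where called, at a mean of 1 FPKM or more, without overlap, the 4 largest changes first. EP300, PFKFB2 and PGM1 lie past the 4 largest and were picked with their values in view. The alternatives were genes at a mean of 1 FPKM or more, a pseudocount of 0.1, 3 scalings, the replicate block, limma without the trend, each library left out and, added later, both libraries numbered 1 left out.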

Additional observations from a re-analysis of the deposited data

How the results depend on the processing

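Of the 18 calls among the 41 genes, 13 (9 lower, 4 higher) were kept under all 14 alternatives in which the gene was tested: EGLN3, DDIT4, CA9, BNIP3, PDK1, PKM, ALDOC, TPI1, ENO1, PFKL, PFKM, PFKP and LDHB. The number called lower was 11 to 14 with 1 library left out and 13 to 19 otherwise, and the number called higher 4 to 5. Scaling to equal sums gained GPI, GAPDH, PGK1, SLC16A1 and CA12 as lower, equal medians PGK1, SLC16A1 and CA12, quantile normalization PGAM1 and CA12 and the pseudocount of 0.1 CA12, and limma without the trend lost NDRG1. Quantile normalization cannot measure GAPDH, the highest gene in every library. Over genes at a mean of 1 FPKM or more, replicate numbers did not pair the samples. The correlations between deviations of same-numbered libraries were −0.040, −0.021 and −0.11, and no library correlated best with its own number. Over the 41 genes alone these values were 0.39, −0.019 and 0.35. There replicates 1 and 3 with miR-204-5p mimics each correlated best with the control of their own number, and replicate 2 did not. Whether the numbers mark pairs for these genes was not settled. With the replicate block 5096 of all genes were called, HK1 was lost, and GPI and SLC2A1 (adjusted p = 0.0309 and 0.0145) were gained. With both libraries numbered 1 left out GAPDH and SLC16A1 were gained, and 3973 of all genes were called, 6 of the other glycolysis and gluconeogenesis genes and 2 of the MondoA genes. With 1 library left out these lists gave 9 to 11 and 2 to 4. Small log2 fold changes turned sign. ENO2 became −0.039, −0.040 and −0.023, and LDHA −0.014, −0.015 and −0.033, under equal sums, equal medians and quantile normalization. With both libraries numbered 1 left out LDHA became −0.12 and ADM 0.028. With 1 library left out the ranges were −0.11 to 0.19 for ENO2, −0.082 to 0.13 for LDHA, −0.28 to 0.20 for ADM, −0.44 to 0.12 for BNIP3L, −0.14 to 0.40 for ANKRD37 and −0.011 to 0.10 for P4HA2. The causes were not tested. Depth limits the genes under 1 FPKM (ALDOC, SLC2A3, CA12), since the number of fragments behind their values is not known.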
